A study of Rattus norvegicus with 12 samples.

Results

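The genes described here are 10 targets of the hypoxia-inducible factor (HIF) whose products act mostly inside the cell: Bnip3, Bnip3l, Ddit4, Ndrg1, Higd1a, Ankrd37, Kdm3a, Cited2, Mxi1 and Car9. They were chosen by name, and every probe set that the array's annotation gives to exactly 1 of these symbols was taken. All 10 were found, with 15 probe sets, among 14217 genes and 31042 probe sets on the array. The product of Car9 sits in the cell membrane, and it was kept with the others as the selection names it.

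RNA was profiled on Affymetrix rat expression arrays from Tumor cells and from A16 cells, both from F111, a normal fibroblast line of the Fischer rat. Tumor cells were cultured out of subcutaneous tumours, given in the labels as 3 months after homozygous nude mice had been injected with F111 cells kept 16 h in suspension. A16 cells were F111 cells plated on plastic for 16 h and were never in a mouse. The labels give 1 medium for both groups, while the study's methods describe a higher serum content for the tumour explants.

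Each group has 3 arrays, labelled as 2 biological replicates with a technical replicate 2. No source used here says whether the biological replicates are separate tumours or separate cultures, so p-values measure the spread between these arrays, which may be technical. The tumour explants were cultured for about a week before RNA was taken, so the values describe cells under culture conditions and not the tumour itself, and cells of the mouse host could have come along. The question addressed is whether these targets moved together in Tumor against A16 cells.

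HIF is a pair of proteins, an oxygen-regulated alpha subunit and the constant partner Arnt, that binds short DNA elements and switches on target genes when oxygen is low. With oxygen present, prolyl hydroxylases (the Egln enzymes) mark the alpha subunit for destruction through the Vhl protein. The targets described here cover removal of mitochondria, restraint of growth signalling, histone demethylation, feedback on HIF and MYC, and control of pH, and they are commonly read together as a hypoxia signature.

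The binding element has the core letters ACGTG or GCGTG, so the RefSeq promoter windows of the genes (GRCr8, 250 bases before to 50 after the annotated start) were searched for both cores on both strands. Of the 10 genes, 8 had a window in the table, 9 windows in all, and Bnip3l and Ndrg1 were not matched. Counted by gene, ACGTG was present for 7 and GCGTG for 5, with at least 1 core for all 8, although the first of the Kdm3a windows held none. The background is counted by window: of all 33469 windows of the same length 19.3% hold ACGTG, 29.7% hold GCGTG and 41.6% hold at least 1 of them. The stretches below are shown because they set genes with opposite differences side by side. Bnip3, Cited2 and Mxi1 were higher in Tumor cells, whereas Ankrd37 was lower and Ddit4 had a negative difference that did not pass the test. Each is written 5′ to 3′ on the strand of the gene, ends at or before the start site, and has the core in capitals.
Bnip3, chr1:203155038-203155078, minus strand, core 98 bases before the start: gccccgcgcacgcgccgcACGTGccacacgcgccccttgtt
Cited2, chr1:14132126-14132166, plus strand, core 159 bases before the start: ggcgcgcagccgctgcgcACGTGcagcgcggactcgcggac
Mxi1, chr1:262348392-262348416, plus strand, core 248 bases before the start: cgACGTGtactggcttgggggcggg
Ankrd37, chr16:53001467-53001506, plus strand, core 22 bases before the start: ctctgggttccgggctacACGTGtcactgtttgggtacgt
Ddit4, chr20:28437153-28437193, minus strand, core 138 bases before the start: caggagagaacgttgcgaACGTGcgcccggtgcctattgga
In Bnip3, Cited2 and Ankrd37 the core lies within CACGTG, a palindrome in which ACGTG is read on both strands and which is also the E-box bound by the MYC/MAX proteins. CACGTG was present in the windows of 3 of the 8 genes and in 6.42% of all windows. For Car9 the only core, 1 ACGTG on the opposite strand, begins just after the start site. Cores were thus present in genes with differences of either sign, and no binding was measured.

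The 10 genes did not move as 1 block. Taking each gene by its brightest probe set, 2 genes were called higher in Tumor cells, Cited2 and Mxi1, and 1 was called lower, Car9, where a call needs a Benjamini-Hochberg adjusted p under 0.05 in limma over all probe sets and a change of at least 2-fold. The background over all genes was 5.45% called higher and 5.44% called lower. With the fold minimum set aside and the adjusted p kept under 0.05, 5 of the 10 rose (Bnip3, Ndrg1, Higd1a, Cited2 and Mxi1) and 2 fell (Ankrd37 and Car9), beside 17.4% and 16.6% of all genes. The remaining 3 genes, Bnip3l, Ddit4 and Kdm3a, did not pass the test on their brightest probe set. The labels do not say which replicate technical replicate 2 repeats. Averaged with replicate 2 instead, Kdm3a and Ddit4 passed as well (limma, adjusted p = 0.00159 and 0.0183). That gives 6 genes higher and 3 lower at any fold, with the same directions. On the A16 arrays of both genes, however, technical replicate 2 lay closer to replicate 1 than to replicate 2. Averaging it with replicate 2 therefore narrows the spread between replicates that the test measures. Kdm3a also passed with it as its own replicate (limma, adjusted p = 0.00551). That setting counts a technical repeat as an independent replicate and overstates the number of replicates.

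The median log2 difference (Tumor minus A16) over the 10 genes was 0.47, with 7 positive and 3 negative, and over all genes it was 0.03. The range ran from -2.10 for Car9 to 1.46 for Mxi1. By probe set, 3 of 15 were called higher and 1 lower, beside 5.51% and 6.39% of all probe sets, and 7 rose and 2 fell at any fold, beside 16.3% and 15.6%. On 13 of the 15 the 3 Tumor arrays lay wholly on 1 side of the 3 A16 arrays, 9 above and 4 below, a separation that 52.6% of all probe sets showed. The arrays were of whole cultures, so a change in the share of cells that express a gene and a change in RNA per cell cannot be told apart.

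**Figure D1:**
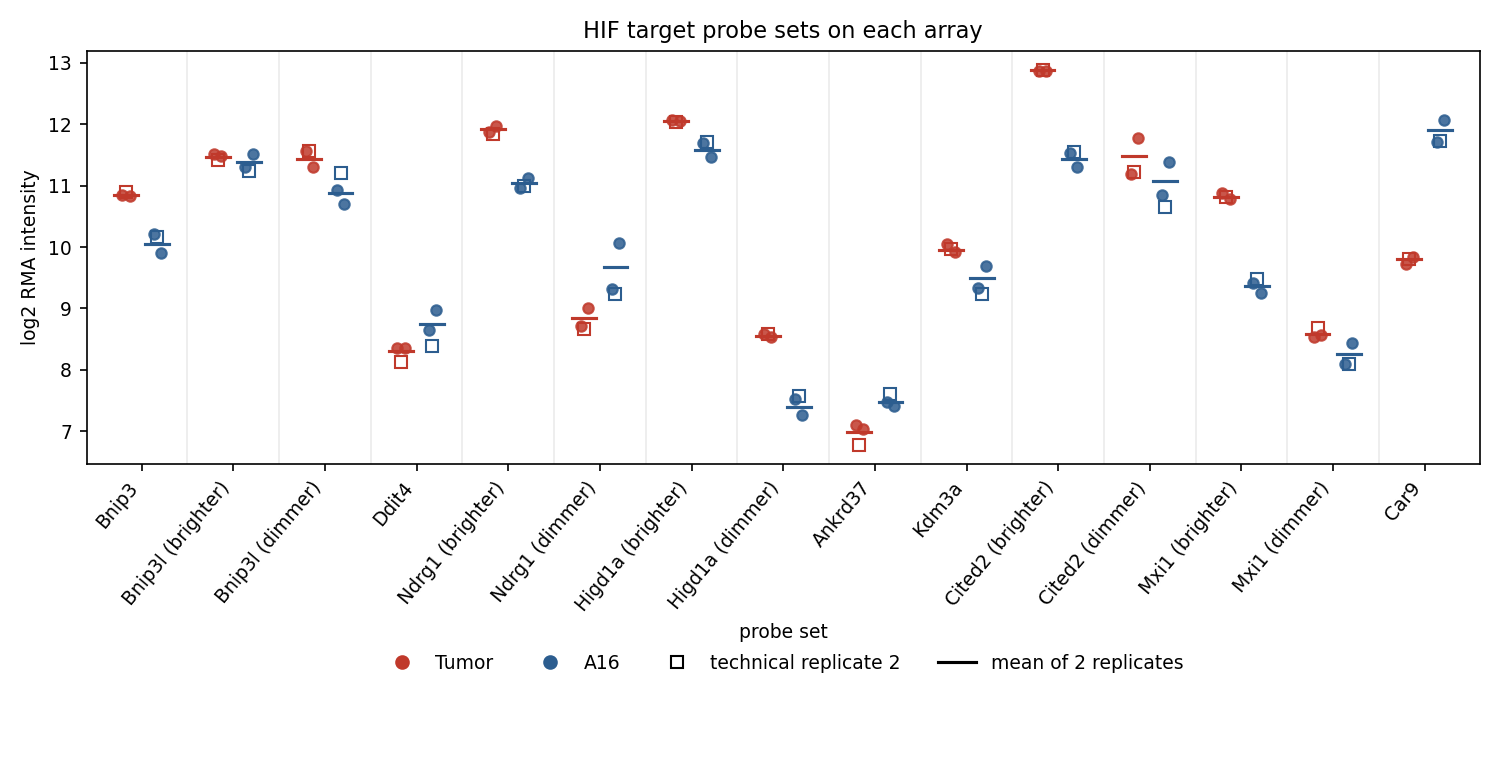
Log2 RMA intensity of the 15 probe sets of the 10 HIF target genes on each array, with Tumor arrays in red left of A16 arrays in blue, squares for technical replicate 2 and bars for the mean of the 2 replicates. The Car9 and Ankrd37 points lie lower in Tumor cells, and both Mxi1 and both Higd1a probe sets lie higher, by unequal amounts.

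Several technical readings differed between the groups as well, and their part in the results was not tested. The poly-A spike controls, added to the RNA before labelling, averaged 4.82 to 4.92 on the log2 scale on Tumor arrays and 7.51 to 7.99 on A16 arrays, and the hybridisation spikes averaged 10.91 to 11.18 on Tumor arrays and 9.78 to 10.18 on A16 arrays. The signal at the 3′ end of the Actb transcript exceeded that at its 5′ end by 2.25 to 2.37 log2 units in Tumor cells and by 0.64 to 0.71 in A16 cells, and the same excess for Gapdh was 0.25 to 0.33 in Tumor cells and -0.05 to 0 in A16 cells. All 3 Tumor arrays stood on 1 side of all 3 A16 arrays in each of these readings, so these readings and the groups cannot be told apart. Pearson's r over all probe sets was 0.991 to 0.997 between arrays of a group and 0.933 to 0.949 between groups.

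Markers of other cell types were read in the same arrays. Of 8 fibroblast markers, 4 were called lower in Tumor cells (Col1a1, Thy1, Col1a2 and Fn1) and none higher, with a summed level of 15.6 to 15.64 on the log2 scale in Tumor cells and 16.27 to 16.38 in A16 cells. Vim, an intermediate filament gene on the same list and not particular to fibroblasts, was at 14.17, 14.18 and 14.21 in Tumor cells and at 14.21, 14.23 and 14.36 in A16 cells. Of 8 macrophage and leukocyte markers, 2 were called higher: Csf1r, the receptor for the macrophage growth factor, was at 8.54 to 8.62 in Tumor cells and 5.29 to 5.67 in A16 cells, 3.14 log2 units higher with RMA and 4.20 with PLIER, and Cd68 was 1.07 log2 units higher. With RMA the leukocyte surface markers Ptprc and Adgre1 stayed at or below 5.42 and 4.18 on every array. With PLIER Adgre1 was higher by 0.78 ± 0.13 and Ptprc, at -0.33 ± 0.16, did not pass (limma, adjusted p = 0.00583 and 0.146). Itgam, on the same list, had -0.13 ± 0.11 with RMA and 0.46 ± 0.13 with PLIER, and only the latter passed (limma, adjusted p = 0.438 and 0.0358). The summed level of the macrophage list was 10.7 to 10.76 in Tumor cells and 10.33 to 10.49 in A16 cells. Much of that sum is Cd14, which was not called, at 9.70 to 9.85 in Tumor cells and 9.86 to 10.01 in A16 cells. The probes are for rat genes, and how well they read RNA of mouse host cells was not tested. With RMA none of 5 endothelial, 4 adipocyte and 6 skeletal muscle markers was called in either direction, and of 6 epithelial markers Krt8 was called higher. At any fold, 2 endothelial, 1 adipocyte, 1 skeletal muscle and 2 epithelial markers rose and 2 skeletal muscle markers fell. With PLIER, Vwf, Fabp4 and Cdh1 had differences of 1.05, 1.03 and 1.44, and Tie1 had -1.63 (limma, adjusted p = 0.00327, 0.00191, 0.00071 and 0.00061). The PLIER calls of these markers thus differ from the RMA calls. The part of any of these cells in the HIF target values was not tested.

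Values are given below as log2 RMA intensities on biological replicate 1, technical replicate 2 and biological replicate 2, in that sequence, and each difference is Tumor minus A16 with its standard error from 2 replicates per group, the technical replicate having been averaged with replicate 1. Levels of different probe sets are not compared with each other, because each has its own probes. Where a replicate is left out below, 1 replicate remains in its group, and leaving out replicate 1 also leaves out technical replicate 2. The spread of that group is then not measured, so only the difference is read.

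Bnip3 and Bnip3l encode related proteins of the outer mitochondrial membrane that recruit the autophagy machinery to mitochondria. Bnip3 (probe set 1387805_at) was at 10.85, 10.90 and 10.83 in Tumor cells, against 10.22, 10.16 and 9.91 in A16 cells. All Tumor arrays lay above all A16 arrays, and the difference of 0.80 ± 0.13, a 1.75-fold rise, passed the test (limma, adjusted p = 0.00469) without reaching 2-fold. Bnip3l was read by a pair of probe sets. The brighter (1367898_at) was at 11.52, 11.42 and 11.48 in Tumor cells and 11.31, 11.23 and 11.51 in A16 cells. These groups overlapped, and the difference of 0.09 ± 0.13 did not pass (limma, adjusted p = 0.657). The dimmer (1386978_at) was at 11.57, 11.56 and 11.30 in Tumor cells and 10.93, 11.21 and 10.70 in A16 cells. There the groups were apart, with a difference of 0.55 ± 0.17 and an adjusted p of 0.0484 in limma, close to the threshold. It did not pass after quantile normalisation (limma, adjusted p = 0.0572). Without A16 replicate 2, Tumor replicate 1 or Tumor replicate 2 the difference was 0.36, 0.41 and 0.68.

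The list of partners of these proteins, in mitophagy and in the BCL2 family, held 12 measured genes. By brightest probe set 1 was called higher and none lower, with a median log2 difference of -0.05. Bcl2l1, at 0.15 ± 0.20 on its brightest probe set, was called lower on a dimmer one (-2.15 ± 0.42, limma, adjusted p = 0.00909). The gene called higher was Optn, an autophagy receptor, at 9.40, 9.28 and 9.18 in Tumor cells and 7.70, 7.91 and 7.89 in A16 cells, a difference of 1.41 ± 0.12 (limma, adjusted p = 0.000359). Its other probe set, at 0.34 ± 0.13, did not pass (limma, adjusted p = 0.0923). Fundc1, another mitophagy receptor, differed by 0.34 ± 0.11 and Pink1, the kinase that marks damaged mitochondria, by 0.34 ± 0.12, and neither passed the test (limma, adjusted p = 0.0552 and 0.0735), although Fundc1 passed with PLIER (0.50 ± 0.13, adjusted p = 0.0304 in limma). Bcl2, the survival factor that binds BNIP3 proteins, had a difference of -0.50 ± 0.11 in the RMA values (limma, adjusted p = 0.0149) and of 0.15 ± 0.15 in the PLIER values (limma, adjusted p = 0.455), so its direction depends on the normalisation.

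Ddit4 encodes REDD1, which restrains the growth kinase complex mTORC1 through the Tsc1 and Tsc2 proteins. Ddit4 (1368025_at) was at 8.36, 8.13 and 8.36 in Tumor cells and 8.65, 8.39 and 8.98 in A16 cells. The Tumor arrays were all below the A16 arrays, the nearest of them by 0.03, and the difference of -0.45 ± 0.17 did not pass (limma, adjusted p = 0.0955). Without A16 replicate 1 the difference was -0.67, and without A16 replicate 2 it was -0.22. Its close relative Ddit4l was called higher, at 7.98, 8.04 and 7.89 in Tumor cells and 6.32, 6.15 and 5.79 in A16 cells, with a difference of 1.94 ± 0.17 in the RMA values and 3.53 ± 0.19 in the PLIER values (limma, adjusted p = 0.000385 and 8.17e-05). Of the 12 measured mTORC1 inhibitors and partners, 1 was called higher and 2 lower by brightest probe set, with a median of -0.17. The lower calls were Txnip, a thioredoxin-binding protein that also stabilises REDD1, with a difference of -1.50 ± 0.18, and Deptor, an inhibitor within the mTOR complexes, with -1.33 ± 0.12 (limma, adjusted p = 0.00136 and 0.000411). Akt1s1, at -0.74 ± 0.14 on its brightest probe set, was called lower on a dimmer one (-2.20 ± 0.21) and rose on another (0.64 ± 0.12). These passed with adjusted p = 0.00814, 0.000562 and 0.00813 in limma. Tsc2 had a difference of -0.39 ± 0.11 that passed with RMA (limma, adjusted p = 0.0355) and not with PLIER (-0.37 ± 0.14, adjusted p = 0.0814).

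Ndrg1 encodes a cytoplasmic stress-response protein and is among the genes most often used to mark hypoxia. Its brighter probe set (1371360_at) was at 11.88, 11.84 and 11.97 in Tumor cells and 10.96, 10.99 and 11.12 in A16 cells. That is a rise of 0.87 ± 0.12, 1.83-fold, with the groups well apart (limma, adjusted p = 0.00221). Its dimmer probe set (1391458_at) went the other way, at 8.71, 8.66 and 9.01 in Tumor cells and 9.32, 9.24 and 10.06 in A16 cells. All Tumor arrays were below all A16 arrays, and the difference of -0.82 ± 0.26 narrowly missed the threshold (limma, adjusted p = 0.0529). Averaging technical replicate 2 with replicate 2 gave -0.72, which passed (limma, adjusted p = 0.00179). Technical replicate 2 lay close to replicate 1 in both groups, so that averaging narrows the spread between replicates. With the authors' PLIER values the same probe set was called lower (-1.02, adjusted p = 0.0482 in limma), and without A16 replicate 1 it was at -1.21, so for Ndrg1 the direction depends on the probe set read. All 3 measured relatives were higher in Tumor cells on their brightest probe set. Ndrg4 was called with a difference of 1.79 ± 0.16 and Ndrg3 with 1.01 ± 0.13, while Ndrg2 rose by 0.66 ± 0.16 without reaching 2-fold (limma, adjusted p = 0.000406, 0.00175 and 0.0207). The call of Ndrg3 sat at the fold limit and was lost without A16 replicate 2 (0.89) or Tumor replicate 1 (0.97).

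Higd1a encodes a small inner-membrane protein of mitochondria that supports the respiratory chain. Its brighter probe set (1370062_at) was at 12.07, 12.03 and 12.06 in Tumor cells and 11.69, 11.71 and 11.47 in A16 cells, a rise of 0.47 ± 0.12 (limma, adjusted p = 0.0297). Its dimmer probe set (1374105_at) was at 8.58, 8.59 and 8.54 in Tumor cells and 7.52, 7.57 and 7.26 in A16 cells. There the rise was 1.16 ± 0.13, 2.23-fold, and it was called (limma, adjusted p = 0.00118). Both probe sets of Higd1a were higher in Tumor cells, with different sizes. The brighter passed with PLIER (0.45, limma, adjusted p = 0.0451), but not with PLIER values less 16 plus 1 (0.45, limma, adjusted p = 0.09). Dropping A16 replicate 1 gave 0.58 and dropping A16 replicate 2 gave 0.36, while dropping either Tumor replicate left 0.47. Of the relatives of Higd1a, 2 were measured and neither was called, and Higd2a, an assembly factor of the respiratory chain, differed by -0.04 ± 0.11.

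Ankrd37 encodes an ankyrin-repeat protein whose promoter is a direct HIF target in human cells. Ankrd37 (1373685_at) was at 7.11, 6.78 and 7.03 in Tumor cells, against 7.47, 7.61 and 7.41 in A16 cells. It fell by 0.49 ± 0.12 on the log2 scale, a 1.40-fold change, with all Tumor arrays below all A16 arrays (limma, adjusted p = 0.0196). The call at any fold was lost with technical replicate 2 left out (-0.37, limma, adjusted p = 0.0653). Without Tumor replicate 1 the difference was -0.45, and without Tumor replicate 2 it was -0.53.

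Kdm3a encodes a histone demethylase that removes methyl groups from lysine 9 of histone H3 and itself needs oxygen. Kdm3a (1370975_at) was at 10.05, 9.97 and 9.92 in Tumor cells and 9.34, 9.24 and 9.69 in A16 cells. All Tumor arrays were above all A16 arrays, although A16 replicate 2 stood above the other A16 arrays. The difference of 0.47 ± 0.16 did not pass (limma, adjusted p = 0.0634). Without A16 replicate 1 the difference was 0.27, and without A16 replicate 2 it was 0.67. Of 10 measured demethylases of the same JmjC class, 1 was called higher and 1 lower by brightest probe set, with a median of 0.23. Kdm7a was higher by 2.02 ± 0.15 and Kdm6b lower, with a difference of -1.21 ± 0.18 (limma, adjusted p = 0.000241 and 0.00293). Without Tumor replicate 1 the difference of Kdm6b was -0.96 and no longer reached 2-fold. Kdm5a was not called on its brightest probe set (0.17 ± 0.12), but dimmer ones were called lower (-2.07 and -1.52, limma, adjusted p = 0.000198 and 0.000797). A further Kdm5a probe set, at 0.52 ± 0.18, did not pass (limma, adjusted p = 0.0751). The closest relatives of Kdm3a were Kdm3b, at 0.49 ± 0.16, which did not pass, and Jmjd1c, which rose by 0.82 ± 0.14 on its brightest probe set (limma, adjusted p = 0.0612 and 0.00549) and was called lower on a dimmer one (-1.16 ± 0.22, adjusted p = 0.00766).

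Cited2 encodes a nuclear protein that competes with HIF for the coactivators p300 and CBP, and so limits HIF activity. Its brighter probe set (1367602_at) was at 12.87, 12.89 and 12.87 in Tumor cells and 11.53, 11.55 and 11.31 in A16 cells. The 3 Tumor arrays were almost equal and stood well above the A16 arrays, a rise of 1.45 ± 0.12, 2.74-fold (limma, adjusted p = 0.000369). Its dimmer probe set (1367601_at) was at 11.19, 11.22 and 11.78 in Tumor cells and 10.84, 10.66 and 11.39 in A16 cells. Replicate 2 was the higher in both groups there, the groups overlapped, and the difference of 0.42 ± 0.26 did not pass (limma, adjusted p = 0.29). It passed with technical replicate 2 averaged with replicate 2 (0.41, limma, adjusted p = 0.0311). Technical replicate 2 lay close to replicate 1 in both groups, so that averaging narrows the spread between replicates. Without A16 replicate 2 the difference was 0.74. The coactivator genes also had higher values on their brightest probe sets, Ep300 by 0.66 ± 0.11 and Crebbp by 0.42 ± 0.13 (limma, adjusted p = 0.00463 and 0.0479). The other probe set of Ep300, at -0.01 ± 0.11, did not pass (limma, adjusted p = 0.958). Crebbp did not pass with PLIER (adjusted p = 0.0761 in limma), and the other probe sets of Crebbp went both ways, from -1.32 to 1.07. None of the 3 measured genes of this family and its coactivators was called by its brightest probe set.

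Mxi1 encodes a partner of Max that opposes MYC. Its brighter probe set (1372093_at) was at 10.88, 10.81 and 10.79 in Tumor cells and 9.41, 9.48 and 9.26 in A16 cells. The rise of 1.46 ± 0.12, 2.75-fold, was about the size of that of Cited2, and these were the largest rises among the 15 probe sets (limma, adjusted p = 0.000325). Its dimmer probe set (1368963_at) was at 8.54, 8.69 and 8.57 in Tumor cells and 8.09, 8.10 and 8.43 in A16 cells. The groups did not overlap, and the difference of 0.33 ± 0.14 did not pass (limma, adjusted p = 0.137). Over the alternative settings it ran from 0.16 to 0.50, the latter without A16 replicate 2. Of 12 measured genes of the MYC/MAX network, 1 was called higher by brightest probe set (Mnt, another Max partner that opposes MYC, 1.26 ± 0.11) and 1 lower (Mxd3, -1.02 ± 0.12). These had adjusted p = 0.000442 and 0.00142 in limma, and the list median was 0.09. Mga, at 0.11 ± 0.17 on its brightest probe set, was called lower on a dimmer one (-2.08 ± 0.13, limma, adjusted p = 9.78e-05). The probe sets of Max passed in opposite directions (0.46 and -0.42, limma, adjusted p = 0.0308 and 0.0338). The call of Mxd3 sat at the fold limit and was lost without Tumor replicate 1 (-0.91). Myc itself was at 10.55, 10.50 and 10.47 in Tumor cells and 9.97, 9.87 and 9.87 in A16 cells, a rise of 0.60 ± 0.11 (limma, adjusted p = 0.0069).

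Car9 encodes carbonic anhydrase 9, a membrane enzyme that hydrates carbon dioxide at the cell surface and is a standard tissue marker of hypoxia. Car9 (1393452_at) was at 9.73, 9.80 and 9.84 in Tumor cells, against 11.71, 11.73 and 12.07 in A16 cells. The Tumor arrays all lay far below the A16 arrays, with a difference of -2.10 ± 0.15, 4.28-fold lower in Tumor cells, which is the largest change of the 10 genes and opposite to most of them (limma, adjusted p = 0.000175). PLIER gave -2.10 as well. Of 16 other measured carbonic anhydrases and pH regulators, 2 were called higher and 1 lower, with a median of 0.09. The bicarbonate transporters Slc4a7 and Slc4a4 were higher by 1.99 ± 0.14 and 1.73 ± 0.12 on their brightest probe sets (limma, adjusted p = 0.000178 and 0.000188). Their other probe sets, at 0.21 ± 0.14 and -0.18 ± 0.13, did not pass (limma, adjusted p = 0.32 and 0.341). Car3, a cytoplasmic carbonic anhydrase of muscle and fat, was lower, at 5.47, 5.61 and 5.44 in Tumor cells and 9.51, 9.20 and 9.65 in A16 cells. Its difference was -4.01 ± 0.14 (limma, adjusted p = 1.67e-05), and -0.98 ± 0.12 on its other probe set. Car12, the other membrane carbonic anhydrase often paired with Car9, differed by 0.11 ± 0.13 and did not pass (limma, adjusted p = 0.57).

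**Figure D2:**
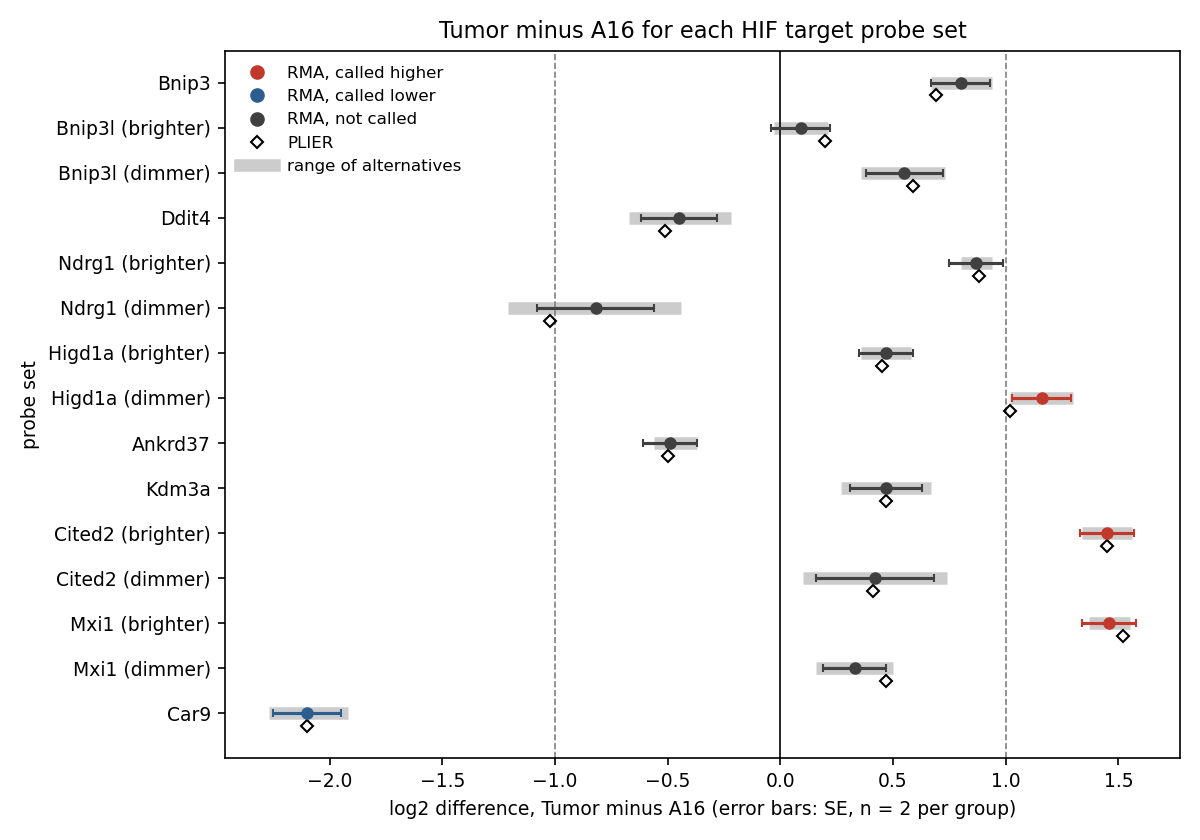
Log2 difference, Tumor minus A16, of the 15 probe sets, as points with standard errors (RMA, 2 replicates per group), with diamonds for PLIER and grey bands for the range over 16 alternative settings. The brighter probe sets of Cited2 and Mxi1 and the dimmer of Higd1a lie beyond the dashed 2-fold line on the right and Car9 at -2.10 on the left, and the Ndrg1 probe sets lie on opposite sides of 0.

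A gene with a pair of probe sets was therefore not read alike by them. Of the 5 such genes, 1 (Ndrg1) had opposite signs, and the gap between the probe sets was 0.46 for Bnip3l, 0.69 for Higd1a, 1.03 for Cited2, 1.13 for Mxi1 and 1.69 for Ndrg1. Over all 3061 genes with exactly 2 probe sets the median gap was 0.45 and 39.4% had opposite signs. Averaging the probe sets of each gene left none of the 10 called higher, Car9 called lower and a median of 0.40. The larger 3′ to 5′ excess on the Tumor arrays, given above, stands beside these gaps. Where each probe set lies in its transcript was not analysed here, and the part of the excess was not tested.

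The other HIF targets also went both ways, but without the mostly positive differences of the 10 genes. Of 56 measured genes in 3 lists, 8 were called higher and 8 lower, beside 5.45% and 5.44% of all genes. Among them 28 had positive and 28 negative differences, and the median was 0.02, beside 0.03 over all genes. Among 25 other intracellular targets, 5 were called higher and 3 lower, with a median of 0.10. Egln3, a prolyl hydroxylase that is both a target and a brake of HIF, was at 11.47, 11.42 and 11.58 in Tumor cells and 7.70, 7.66 and 8.16 in A16 cells, a difference of 3.59 ± 0.18 or 12.1-fold. Bhlhe41, a transcriptional repressor, was higher by 2.46 ± 0.12 and Gbe1, the glycogen-branching enzyme, by 1.98 ± 0.13, while Ak4, a mitochondrial adenylate kinase, had a difference of -2.14 ± 0.15 (limma, adjusted p for the 4 genes between 4.22e-05 and 0.000165).

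Among 16 secreted and matrix targets, 2 were called higher and 5 lower, with a median of -0.11. Stc1, a secreted glycoprotein, had the largest rise of these lists, at 9.95, 9.46 and 9.72 in Tumor cells and 6.36, 5.99 and 5.78 in A16 cells, a difference of 3.74 ± 0.15 or 13.3-fold (limma, adjusted p = 2.59e-05). The size of this rise depended on the normalisation and the probe set: PLIER gave 5.62 ± 0.13 for the same probe set, and the dimmer probe sets gave 2.71 and 1.48 with RMA, all in the same direction. Lox, which cross-links collagen, was at 9.85, 9.76 and 9.65 in Tumor cells and 13.25, 13.27 and 13.26 in A16 cells, a difference of -3.53 ± 0.12. The matrix genes Ccn2 and Loxl2 had differences of -3.17 ± 0.12 and -3.16 ± 0.12 (limma, adjusted p for these 3 between 1.43e-05 and 2.13e-05). The collagen genes Col1a1 and Col1a2 among the fibroblast markers were lower in Tumor cells too.

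Of 15 glycolytic targets 1 was called, Slc2a1, the glucose transporter, which was higher by 1.10 ± 0.11 (limma, adjusted p = 0.00065), and the list median was -0.07. The median of the 10 intracellular genes, 0.47, was thus the highest of these 4 target lists. That order is a description of genes chosen by name, with no test of the difference between lists.

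**Figure D3:**
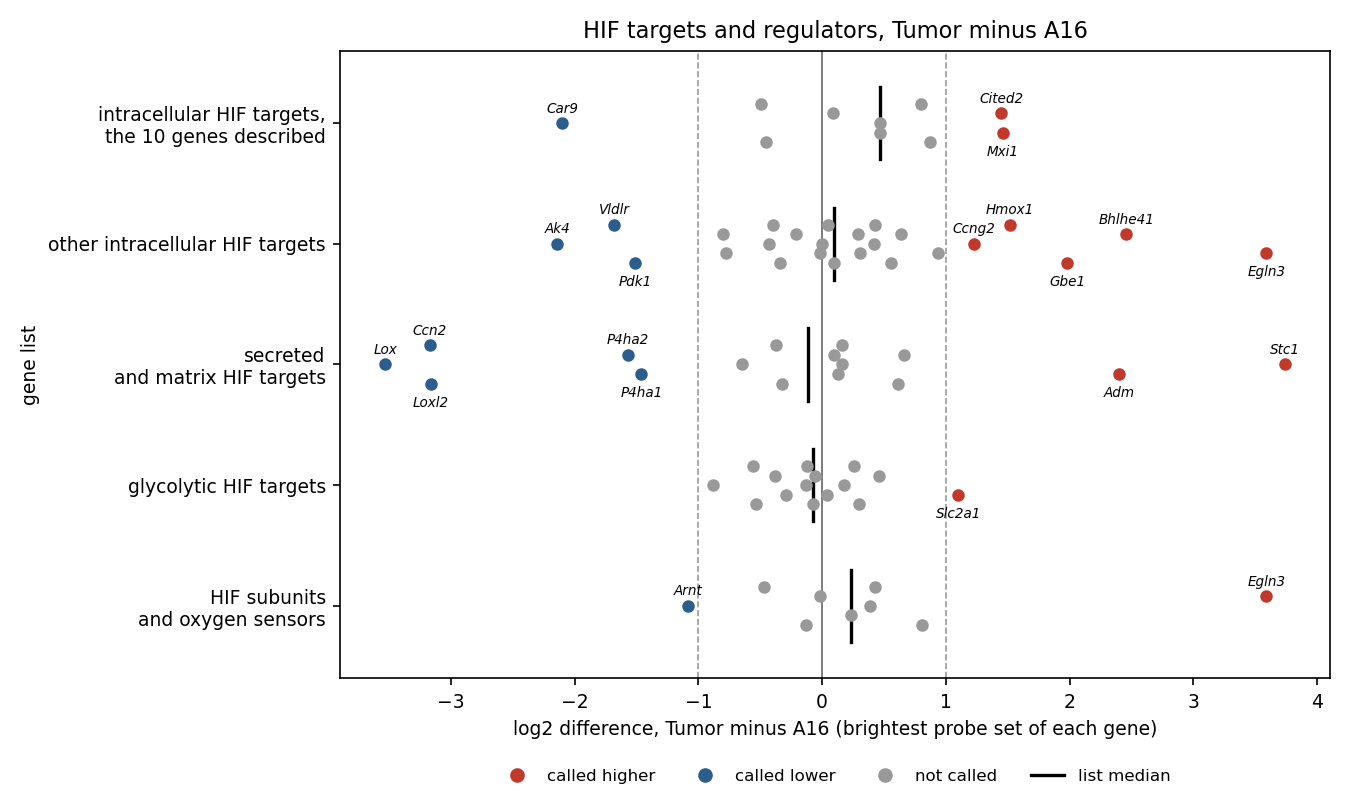
Log2 difference, Tumor minus A16, of each measured gene by its brightest probe set, for the 10 genes, the other HIF target lists and the HIF machinery, with called genes coloured and named, black bars for list medians and dashed lines at 2-fold. Called genes stand on both sides of 0 in every row but the glycolytic one, where Slc2a1 alone is called.

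In the HIF machinery itself, 1 of 9 measured genes was called higher (Egln3, above) and 1 lower. Hif1a, the oxygen-regulated subunit, was at 12.63, 12.62 and 12.47 in Tumor cells and 11.79, 11.72 and 11.72 in A16 cells, a rise of 0.81 ± 0.12 that did not reach 2-fold (limma, adjusted p = 0.00277). Its partner Arnt was at 6.98, 6.41 and 7.08 in Tumor cells and 7.80, 7.46 and 8.31 in A16 cells, a difference of -1.08 ± 0.24 (limma, adjusted p = 0.0159). That call was lost without A16 replicate 2 (-0.74) and without Tumor replicate 1 (-0.89). Epas1, the HIF-2 subunit, differed by -0.02 ± 0.12, and Vhl by -0.47 ± 0.15, which did not pass with RMA and passed with PLIER (-0.54, limma, adjusted p = 0.0603 and 0.0339). The level and activity of HIF protein are not measured by these arrays.

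**Figure D4:**
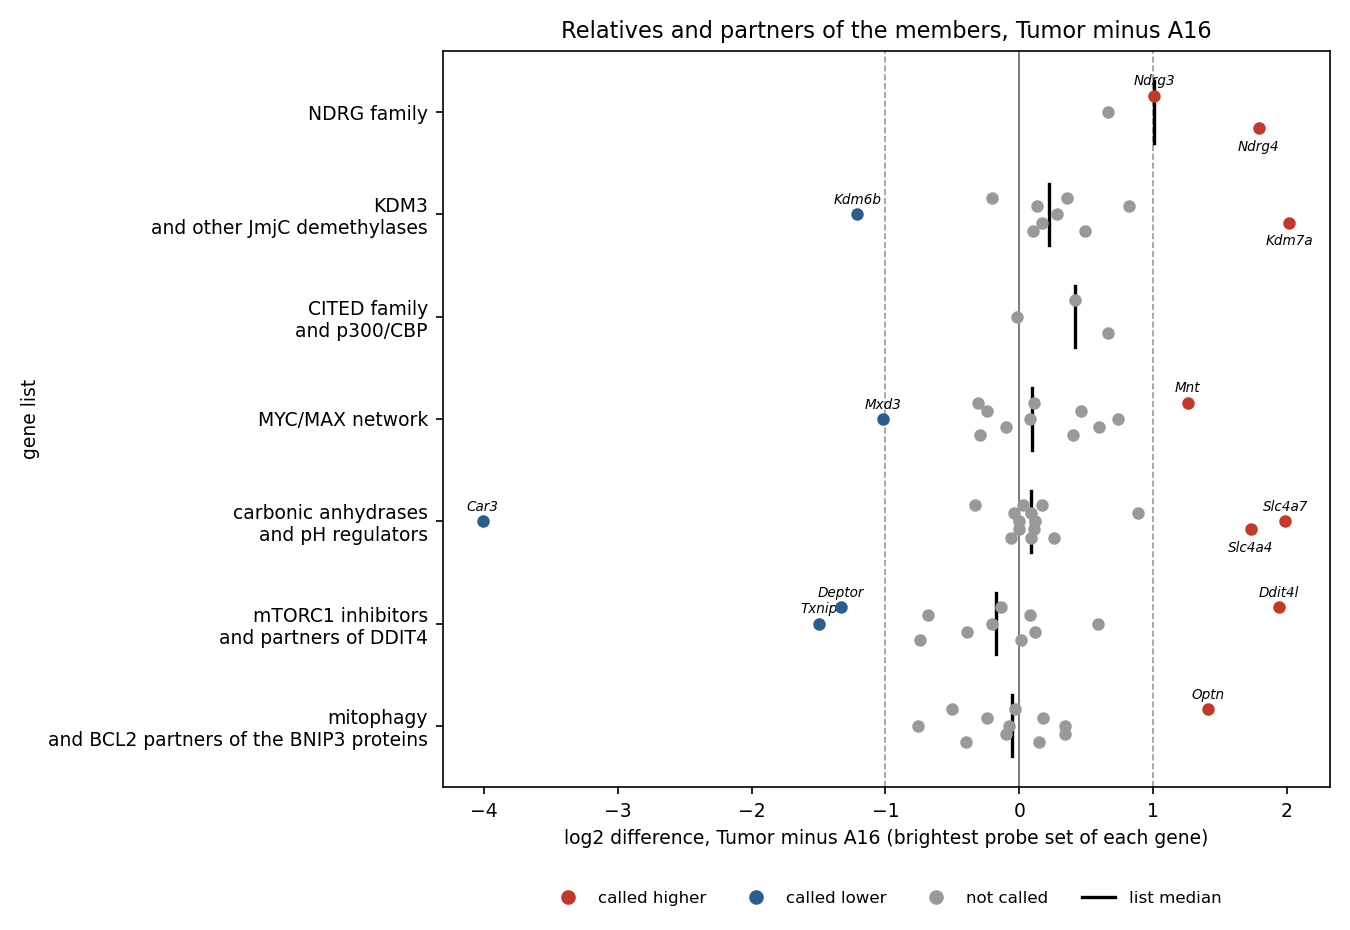
Log2 difference, Tumor minus A16, of the measured relatives and partners of the 10 genes by their brightest probe set, in 7 lists, with called genes coloured and named, black bars for list medians and dashed lines at 2-fold. The NDRG list stands at a median of 1.01, and Car3, at -4.01, is the farthest from 0.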

How the data were processed

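RNA of Tumor and A16 F111 cells was labelled as biotinylated cRNA and hybridised to rat expression arrays. The authors adjusted the scans in GeneChip Operating Software and normalised them in Avadis by RMA and by PLIER, and both sets of values were deposited, as linear intensity, giving 12 records of 6 arrays. An RMA and a PLIER record of 1 array were counted as 1 sample. Array medians of the RMA values were 98 to 99.7 and the lowest PLIER value was 16. The number of arrays limits the precision.

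The RMA values were put on the log2 scale. Technical replicate 2 was averaged with replicate 1, the only other array with a technical number, which left 2 replicates per group. The 31042 probe sets left after removal of 57 array controls were fitted with limma 3.58.1 in R 4.3.3 (lmFit, eBayes, two-sided), and p-values were adjusted by Benjamini-Hochberg over all of them. A gene was called at an adjusted p under 0.05 and a fold of at least 2, and was counted once by its brightest probe set. Probe sets were named from GEO's platform annotation, in which 20826 probe sets have 1 symbol. The fit was tested on simulated data. Promoter letters came from RefSeq (GRCr8). The pairing of replicate numbers, and alternatives in normalisation, scaling, filter, replicates and probe set choice, were tried.

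The 10 genes, the 12 lists of related genes (143 of 159 genes measured, the 10 included) and the 6 marker lists were chosen with earlier results of these data known. All 10 genes are named with every probe set, and from each list up to 4 called genes by size and those a statement on one of the 10 genes needs.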

Additional observations from a re-analysis of the deposited data

How the results depend on the processing

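The calls rest on 2 replicates per group. Of 240 values of the 15 probe sets under 16 alternatives, 233 kept their direction and their 2-fold call or lack of one. A probe set without a 2-fold call, as 11 of the 15 were, counts as kept even where it stopped passing at any fold. Ankrd37 did so with technical replicate 2 left out (limma, adjusted p = 0.0653). The dimmer Ndrg1 probe set was called lower with PLIER, so 2 probe sets were lower there, and its difference was -1.21 without A16 replicate 1. The brighter Bnip3l probe set ran from -0.03 (without A16 replicate 1) to 0.21. Some of the 16 alternatives leave out 1 replicate at a time. They leave 1 replicate in that group, whose spread is then not measured, so calls from them carry little weight. In these settings the median over the 10 genes was 0.43 to 0.51.

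The plain test that a figure legend of the study names left 4 probe sets higher and 8 lower after Benjamini-Hochberg adjustment and therefore 0 of the 10 genes, 0 of the 15 probe sets and 0 of the other HIF targets in either direction. Unadjusted, at p under 0.05, it gave 1607 higher and 1493 lower, with 2 of the 10 higher and 1 lower. PLIER values less 16 plus 1 gave 3113 higher over the array, and 1 of the 10 lower at any fold, as did leaving out technical replicate 2. With no fold minimum, 5 of the 10 genes were higher and 2 lower, and 7 and 2 of the 15 probe sets. The mean over a gene's probe sets gave 0 higher and a median of 0.40. Reading the other probe set of each pair, and counts at any fold under these settings, were chosen after seeing the data, and the other probe set gave 1 higher and a median of 0.37.

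Same-numbered arrays deviated together with r = 0.121 over the single pairing the numbers give, which does not settle whether they pair the samples, and no label says that a number marks a shared culture or day. With the replicate block, 1715 probe sets were higher and 2035 lower, and 2 and 1 of the 10 genes. At any fold the block gave 6 of the 10 higher and 3 lower, since Kdm3a and Ddit4 passed (limma, adjusted p = 0.0341 and 0.0315), as did the dimmer probe sets of Cited2 (0.0275) and Ndrg1 (0.00163). The median difference over all probe sets was 0.03, and 0 after quantile normalisation and 0.06 with PLIER.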
